A study of Mus musculus with 24 samples.

Results

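RNA from the villi of small intestines that had lost Rb and the activator E2fs together was compared with RNA from wild-type villi. The label QKO stands for E2f1-/-;E2f2-/-;E2f3-/-;Rb-/- and WT for wild type. The comparison holds 3 QKO villus arrays and 3 WT villus arrays, 6 of the 24 Affymetrix arrays of the series, chosen by their titles. It is described across 18193 genes, each read by whichever of its probe sets had the highest mean across the 24 arrays. The remaining arrays are WT and QKO crypts, and crypts and villi of mice that lost only Rb (Rb) or only E2f1, E2f2 and E2f3 (TKO), again with 3 arrays a group. All mice were 2 months old, of strain C57BL/6;FVB, fed a normal diet, and every group, WT included, was killed 7 days after an intraperitoneal injection of beta-napthoflavone, as the labels spell it. That compound activates the aryl hydrocarbon receptor and is the usual inducer of a Cre recombinase placed under the Cyp1a1 promoter in intestinal epithelium. The labels name no Cre line, do not say which alleles are deleted only in the gut, and do not give the stretch of intestine or whether arrays sharing a group are separate animals, so the p-values measure the spread between these samples, which may be technical.

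Rb, the retinoblastoma protein, binds E2f transcription factors and keeps them from switching on the genes of S phase. E2f1, E2f2 and E2f3 are the activator members of the family. E2f4 and E2f5 act mainly as repressors together with the Rb relatives p107 (Rbl1) and p130 (Rbl2), and E2f7 and E2f8 are atypical repressors that are themselves E2f targets. In the small intestine cells divide in the crypt, leave the cell cycle as they move onto the villus, and work there as absorptive enterocytes or as goblet, enteroendocrine and tuft cells. The comparison asks which genes of the differentiated villus change when both Rb and its activator partners are missing.

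All levels are log2 signals, so that a difference of 1 is a 2-fold change. Differences are QKO minus WT with their standard error (SE) from a limma fit over all 24 arrays, and a gene is called changed at a Benjamini-Hochberg adjusted p under 0.05. The tissue label was checked against the crypt arrays. Lgr5, a receptor of crypt stem cells, read 5.05, 5.15 and 5.09 in WT villi and 6.52, 7.47 and 6.48 in WT crypts, and 4.57, 4.79 and 5.12 in QKO villi and 5.65, 6.00 and 5.43 in QKO crypts. Villi lay below crypts in both genotypes. Array medians lay between 5.05 and 5.26 over these 6 arrays, the highest being QKO villi 3. Several array-level values moved with genotype. The bacterial poly-A controls, RNAs added during sample preparation, averaged 5.83 to 6.51 on the WT and 10.41 to 10.91 on the QKO villus arrays. The Y-linked gene Eif2s3y read 3.46, 3.02 and 3.37 in WT villi against 10.05, 9.46 and 9.84 in QKO villi, which makes the WT arrays female and the QKO arrays male. Genotype, sex and the handling that the poly-A controls record cannot be told apart within these 6 arrays. The Rb villus, TKO villus and TKO crypt groups hold both sexes, with 1 female array each, which allowed a fit with sex as a covariate. Its sex term comes from these groups alone and is carried over to QKO and WT villi.

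**Figure D1:**
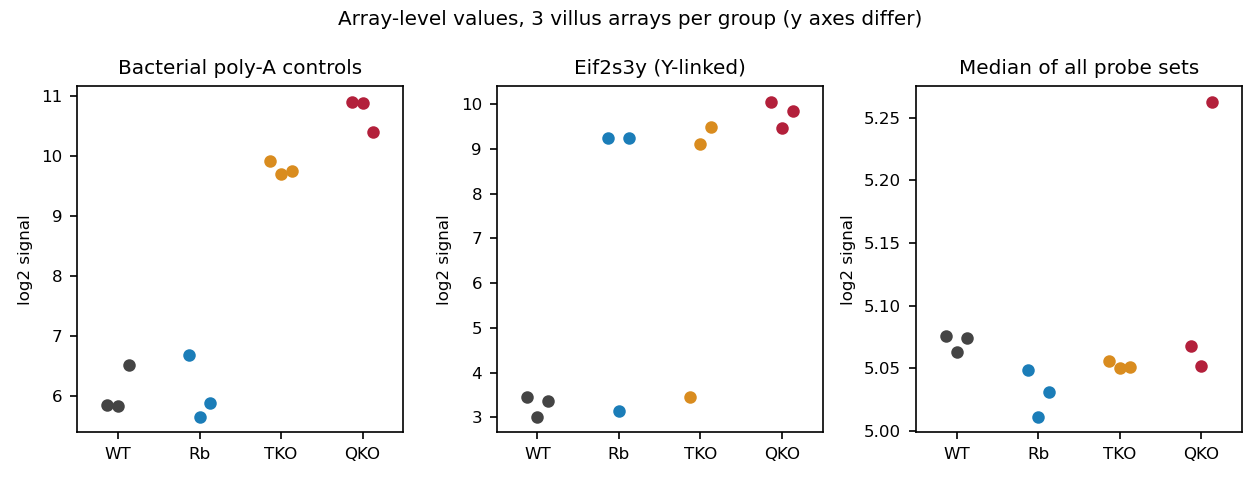
Log2 signal of the bacterial poly-A controls (left), of Eif2s3y (middle) and of the median probe set (right) on each of the 3 villus arrays of WT, Rb, TKO and QKO. The WT and QKO points do not overlap for the first pair of quantities, Rb and TKO hold 1 array each with a low Eif2s3y value, and QKO villi 3 has the highest median, 5.26.

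The Rb1 transcript was lower in QKO villi. It read 10.70, 10.93 and 10.74 in WT villi against 8.28, 8.57 and 8.77 in QKO villi. The groups did not overlap, as for 30.8% of all genes in either direction, and the difference was -2.25 ± 0.41 (SE, n = 3 a group, adjusted p = 0.00081). Rb villi lay at 8.84, 9.36 and 9.19 and TKO villi at 10.38, 10.32 and 10.37, so the low Rb1 values sat in both genotypes labelled as lacking Rb. The probe sets of E2f1, E2f2 and E2f3 did not fall: the differences were 0.24 ± 0.19, -0.28 ± 0.19 and -0.09 ± 0.21, with adjusted p of 0.443, 0.346 and 0.829. The labels do not say which exons were removed, so probes outside them check nothing about these 3 deletions.

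In all, 3052 of 18193 genes were called, 16.8%, with 2104 higher (11.6%) and 948 lower (5.21%) in QKO villi. At 2-fold or more, 639 called genes were higher (3.51%) and 122 lower (0.671%). At 16-fold or more, 8 were higher and 3 lower. The balance between rises and falls hung on the scaling between arrays. As deposited, 68.9% of the called genes were higher, against 46.5% after quantile normalization and 23.5% when each array was centred on its median, which moved the median difference of all genes by -0.21. Without WT villi 3 the count was 1956, and with sex as a covariate it was 1242, of which 964 were higher.

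**Figure D2:**
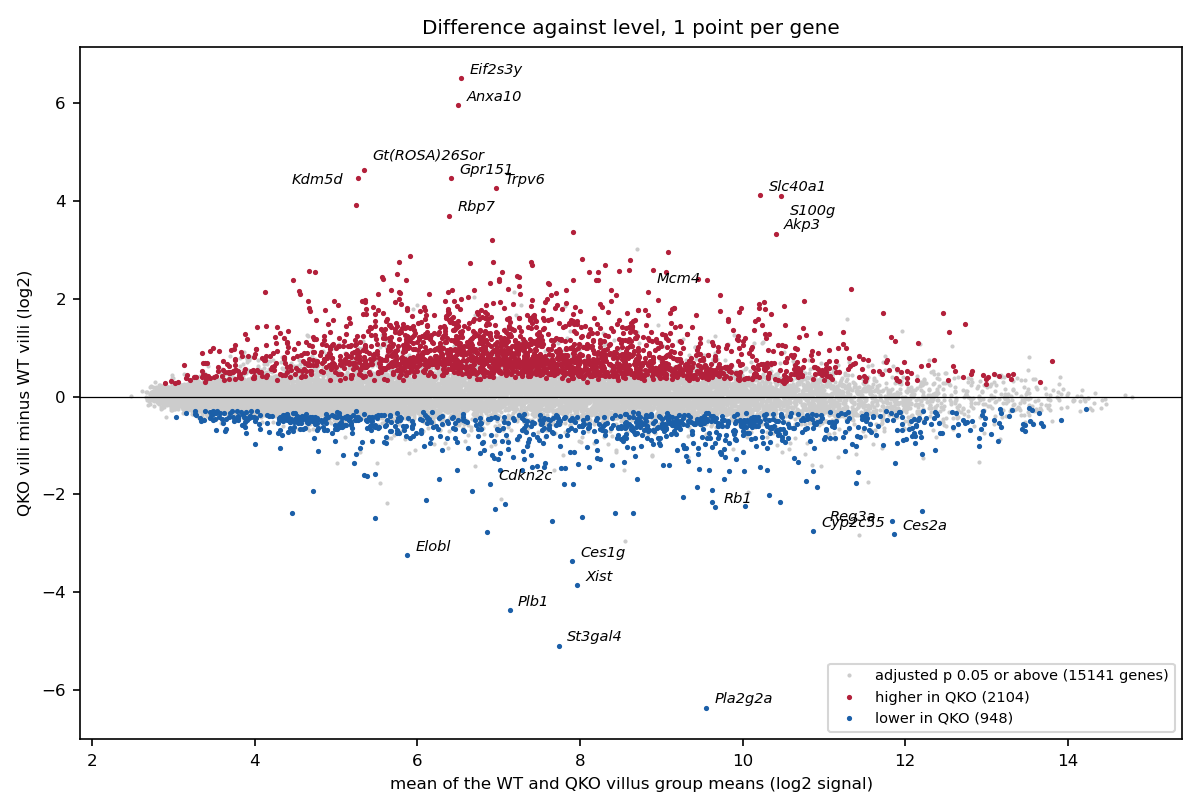
Difference between QKO and WT villi (log2, vertical) against the mean of both group means (log2 signal, horizontal), 1 point per gene, in colour where the adjusted p is under 0.05. The named genes lie at the edges: Anxa10 at 5.96, Trpv6 at 4.26, Slc40a1 at 4.12 and S100g at 4.10 above 0, and Pla2g2a at -6.36 and St3gal4 at -5.09 below it.

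The genes of S phase entry and DNA replication were higher in QKO villi. Of 58 measured members of the list, 44 rose and 0 fell, against 11.6% of all genes that rose, and the median difference was 1.08 against 0.03 over all genes. The largest rise was in Mcm4, a subunit of the replicative helicase, which read 7.80, 7.91 and 7.59 in WT and 9.78, 9.91 and 10.06 in QKO. All 3 QKO arrays stood near 10 and all 3 WT arrays near 8, with no overlap, and the difference was 2.15 ± 0.17 (adjusted p = 7.25e-08). Mcm2 rose by 1.78 ± 0.13 and Mcm7 by 1.79 ± 0.14. Rrm2, the regulatory subunit of ribonucleotide reductase, which makes deoxynucleotides, read 7.56, 7.47 and 7.15 in WT and 9.58, 9.53 and 9.33 in QKO, a difference of 2.08 ± 0.28 (adjusted p = 3.99e-05). Uhrf1 and Dnmt1, which copy DNA methylation onto the new strand, rose by 1.77 ± 0.24 and 1.37 ± 0.19. Not every classical S phase gene moved. Pcna, the polymerase clamp, read 11.44, 11.31 and 11.56 in WT and 11.79, 11.80 and 11.75 in QKO, a difference of 0.34 ± 0.17 (adjusted p = 0.197). Ccne2, a cyclin E gene and a textbook E2f target, stood at 7.27, 7.99 and 8.27 in WT and at 6.74, 7.30 and 7.30 in QKO (-0.73 ± 0.46, adjusted p = 0.307). The count of S phase genes that rose was 36 with sex as a covariate.

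A few promoters are shown because they hold letters that E2f proteins are known to bind. RefSeq promoters on GRCm38.p6, 250 bases before to 50 after a gene's start, were searched on both strands for TTTCCCGC, TTTCGCGC, TTTGCCGC and TTTGGCGC, which can overlap each other. Of the 14452 measured genes with a promoter in the table, 3.81% had a match. Of the 47 S phase genes with one, 38.3% had a match, 15 of the 36 that rose and 3 of the 11 that were not called higher. Among all genes called higher in QKO villi the share was 7.34% of 1704, and among those called lower 2.61% of 765. The 200 bases before the start are given 5′ to 3′ for 3 Mcm genes that rose and for Cdc25a, a phosphatase gene that held a match and did not pass the test, with the matches in capitals.
Mcm5 (chr8:75109309-75109508, plus strand): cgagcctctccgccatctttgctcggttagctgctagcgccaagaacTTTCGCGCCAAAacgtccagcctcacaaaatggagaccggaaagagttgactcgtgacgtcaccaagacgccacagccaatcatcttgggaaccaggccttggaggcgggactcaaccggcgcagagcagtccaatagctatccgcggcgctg
Mcm6 (chr1:128359706-128359905, minus strand): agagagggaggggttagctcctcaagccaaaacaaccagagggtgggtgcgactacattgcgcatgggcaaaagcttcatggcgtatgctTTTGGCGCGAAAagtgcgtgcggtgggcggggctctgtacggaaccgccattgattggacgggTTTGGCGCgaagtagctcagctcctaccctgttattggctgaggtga
Mcm7 (chr5:138171884-138172083, minus strand): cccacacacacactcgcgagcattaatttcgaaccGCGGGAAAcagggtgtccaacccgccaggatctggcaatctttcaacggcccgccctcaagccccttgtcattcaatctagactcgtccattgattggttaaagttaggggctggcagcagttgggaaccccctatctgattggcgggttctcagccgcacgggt
Cdc25a (chr9:109875379-109875578, plus strand): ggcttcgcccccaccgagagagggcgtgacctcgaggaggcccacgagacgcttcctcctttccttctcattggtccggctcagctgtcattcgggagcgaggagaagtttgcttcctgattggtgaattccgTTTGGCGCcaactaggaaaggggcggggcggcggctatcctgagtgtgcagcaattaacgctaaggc

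In Mcm5 the capitals hold 2 matches, 1 on each strand, that overlap and begin 153 and 149 bases before the start. Mcm6 has such an overlapping pair 110 and 106 bases before the start and a further match at 47. The Mcm7 stretch has 1 match, at 165. In Cdc25a the match begins 67 bases before the start. Mcm5 read 8.07, 7.82 and 7.998 in WT villi and 10.01, 9.94 and 9.89 in QKO villi, a difference of 1.98 ± 0.17 (adjusted p = 1.52e-07). Mcm6 read 9.29, 8.46 and 8.82 against 10.64, 10.51 and 10.64 (1.74 ± 0.24, adjusted p = 4.45e-05). Cdc25a read 9.39, 9.29 and 9.18 against 9.36, 9.40 and 9.49, and its groups overlapped (0.13 ± 0.11, adjusted p = 0.46). A match is a run of letters and not a measured binding site. The rises of Mcm5, Mcm6 and Mcm7 were measured on arrays labelled as lacking the 3 activator E2fs.

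**Figure D3:**
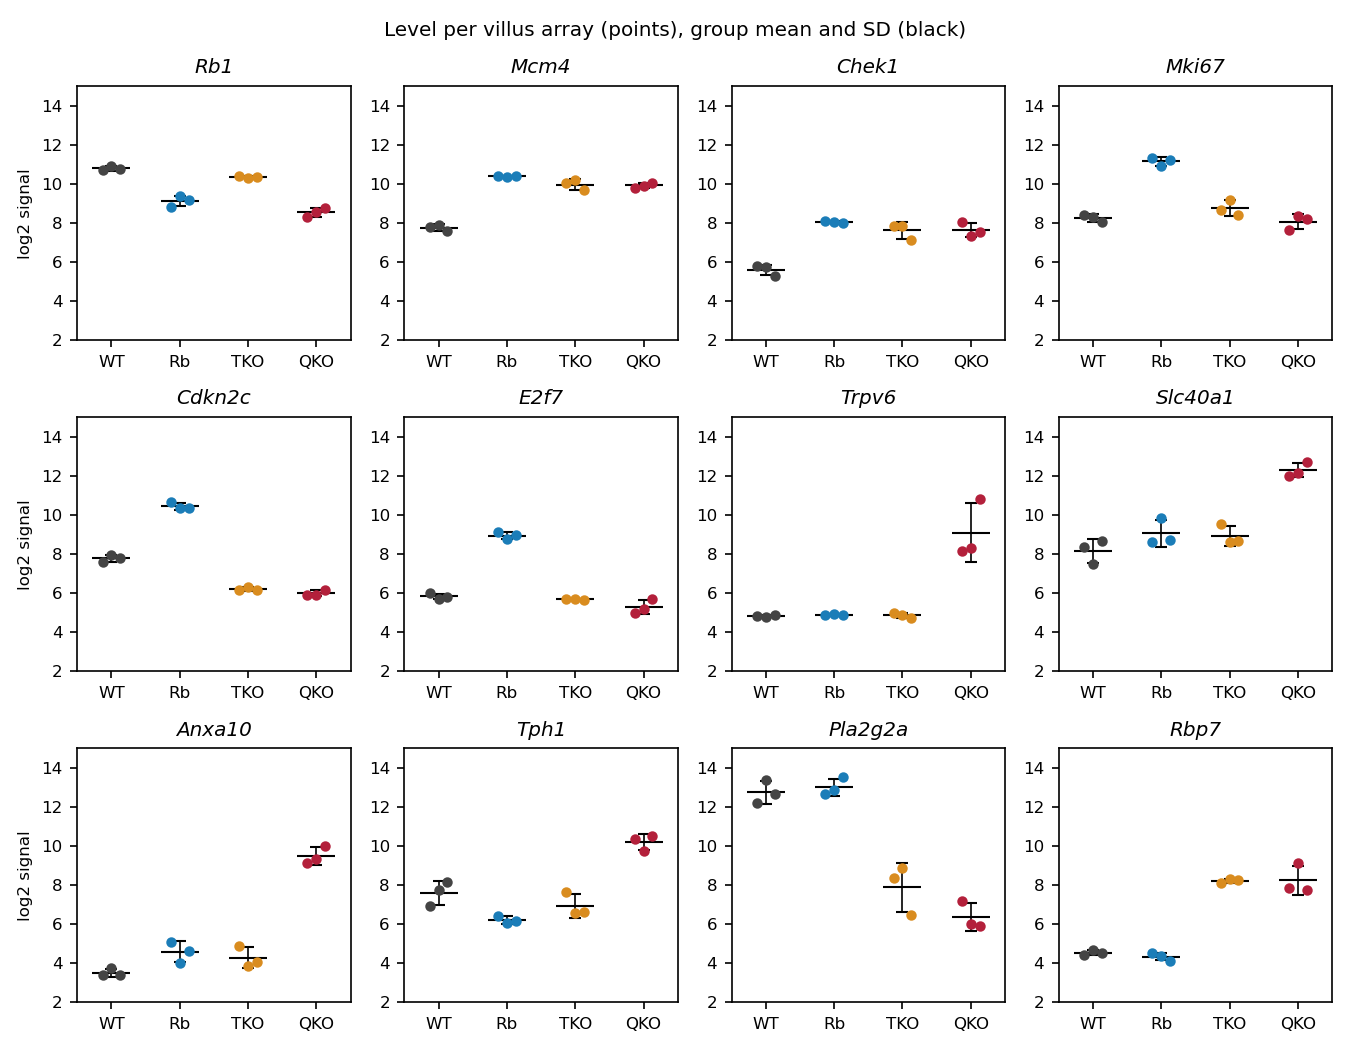
Log2 signal of 12 genes on each villus array of WT, Rb, TKO and QKO (points), with the mean and SD of each group of 3 (black). Mcm4 and Chek1 are raised in Rb, TKO and QKO villi, Mki67, Cdkn2c and E2f7 are high in Rb villi alone among the 4, and Trpv6, Slc40a1, Anxa10 and Tph1 are highest in QKO villi.

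Checkpoint and repair genes rose alongside replication genes. Of 22 measured, 15 were higher and 0 lower, beside 11.6% and 5.21% of all genes, with a median difference of 0.76. Chek1, the kinase that halts the cycle when replication forks stall, read 5.79, 5.73 and 5.28 in WT villi and 8.06, 7.32 and 7.55 in QKO villi. The groups lay apart by over 1 unit, and the difference was 2.04 ± 0.22 (adjusted p = 3.09e-06). Brca1, a homologous recombination gene, rose by 1.68 ± 0.25. With sex as a covariate 11 of the 22 were called higher.

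Mitotic genes rose in smaller number. Of 58 measured, 27 rose and 1 fell, beside 11.6% and 5.21% of all genes, and the median difference was 0.68. Mad2l1, of the spindle checkpoint, rose by 1.43 ± 0.17 (adjusted p = 9.66e-06), with arrays at 7.84, 8.01 and 7.93 in WT and at 9.24, 9.34 and 9.48 in QKO. The separase inhibitor Pttg1 fell by 0.56 on the log2 scale (SE 0.16, adjusted p = 0.0199), and its adjusted p was 0.0904 without QKO villi 2, 0.0683 without WT villi 2 and 0.072 without WT villi 3. The proliferation marker Mki67 was not higher: it read 8.41, 8.30 and 8.05 in WT and 7.64, 8.35 and 8.20 in QKO (-0.18 ± 0.29, adjusted p = 0.722). Likewise Top2a, the topoisomerase that untangles chromosomes before mitosis, differed by 0.06 ± 0.27 (adjusted p = 0.918). The number of mitotic genes called higher was 14 without QKO villi 3, 15 without QKO villi 2, 15 without WT villi 3, 18 after median centring and 7 with sex as a covariate.

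Among 15 cyclins, G1 kinases and their inhibitors, 5 rose and 2 fell, beside 11.6% and 5.21% of all genes. There was 1 fall without QKO villi 1, QKO villi 2 or any 1 of the WT villus arrays. Ccnd2, a D cyclin that activates Cdk4 and Cdk6, read 8.28, 8.31 and 8.11 in WT and 10.51, 10.16 and 9.41 in QKO villi, a difference of 1.79 ± 0.45 (adjusted p = 0.00891). Ccnd3 rose by 1.18 ± 0.18 and Cdk4 by 0.94 ± 0.20. Cdkn2c, which encodes the Cdk4 and Cdk6 inhibitor p18, went the other way, from 7.61, 7.94 and 7.79 in WT to 5.89, 5.91 and 6.18 in QKO (-1.78 ± 0.27, adjusted p = 0.000124). Cdkn1a, the p21 inhibitor, stood at 11.29, 11.17 and 11.64 in WT and at 11.75, 11.81 and 12.66 in QKO, without passing the test (0.71 ± 0.29, adjusted p = 0.102). Of the 13 E2f and pocket protein genes 3 rose and 2 fell. E2f8 rose by 1.24 ± 0.30, E2f6, a repressor that binds DNA without pocket proteins, by 0.68 ± 0.13 and the dimer partner Tfdp1 by 0.57 ± 0.14. Besides Rb1, only Rbl2 was lower in this list (-0.59 ± 0.20, adjusted p = 0.0498), a call lost without QKO villi 1, QKO villi 2 or any 1 of the WT villus arrays (adjusted p from 0.0697 to 0.216). E2f7 read 5.99, 5.71 and 5.80 in WT and 5.01, 5.20 and 5.70 in QKO, and did not pass the test (-0.53 ± 0.30, adjusted p = 0.246).

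Ribosome biogenesis factors, which assemble ribosomes in the nucleolus, were also higher: 19 of 32 rose and 0 fell, with a median of 0.75. Ncl, the nucleolar protein nucleolin, read 10.33, 10.30 and 9.63 in WT and 11.72, 11.17 and 11.02 in QKO (1.22 ± 0.23, adjusted p = 0.00101). Npm1, another abundant nucleolar protein, rose by 1.08 ± 0.16. The count was 12 without QKO villi 1, 11 without WT villi 3 and 9 with sex as a covariate. In the Myc family of regulators 0 of 10 rose and 1, Mxd1, fell (-0.95 ± 0.31, adjusted p = 0.0406), a call that held in no fit leaving out 1 villus array other than QKO villi 3 (adjusted p from 0.0642 to 0.246). Of the 19 p53 target genes 3 rose and 1 fell, close to the 11.6% and 5.21% of all genes that did. Without QKO villi 3, 2 fell, and without any other 1 of the villus arrays 0 fell. Of 17 apoptosis and Bcl2 family genes 4 rose and 1 fell, with 2 rises without QKO villi 3, WT villi 1 or WT villi 3. Bcl2l11, a cell death activator, rose by 1.23 ± 0.27 and Bad, another one, fell by 0.74 on the log2 scale (SE 0.11).

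Set against the villi that lost only Rb or only the E2fs, the same QKO arrays gave other counts for the cell cycle genes. These comparisons share the QKO arrays with the one above. The poly-A controls averaged 5.65 to 6.67 on Rb villi and 10.41 to 10.91 on QKO villi. Genotype and the handling these controls record cannot be told apart between QKO and Rb villi either. Against Rb villi 4043 genes were called (22.2%), 14.2% higher and 8.02% lower in QKO. There 37 of 58 S phase genes and 47 of 58 mitotic genes were lower in QKO, and 1 and 0 were higher. Mki67 read 11.31, 10.90 and 11.23 in Rb villi, a difference of -3.08 ± 0.29 for QKO minus Rb (adjusted p = 6.35e-07). E2f7 stood at 9.12, 8.76 and 8.95 there, above every QKO array, and the difference was -3.64 ± 0.30 (adjusted p = 1.15e-07). For Ccne2, at 10.80, 10.49 and 10.38 in Rb villi, it was -3.44 ± 0.46. Cdkn2c, at 10.65, 10.35 and 10.34, showed the largest gap of these genes, -4.45 ± 0.27 (adjusted p = 3.06e-09). For Mcm4 the gap was small: Rb villi read 10.40, 10.35 and 10.39, and the difference of -0.46 ± 0.17 did not pass the test (adjusted p = 0.0523).

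Against TKO villi 1215 genes were called (6.68%), 5.51% higher and 1.17% lower in QKO. The poly-A controls averaged 9.70 to 9.92 on TKO villi, closer to the QKO than to the WT or Rb villus arrays. Of the S phase genes 0 were higher and 4 lower, and of the mitotic genes 0 and 8. Mcm4 read 10.05, 10.17 and 9.67 in TKO villi, a difference of -0.05 ± 0.17 (adjusted p = 0.909). Chek1, at 7.86, 7.86 and 7.14, differed by 0.02 ± 0.22 and Cdkn2c, at 6.18, 6.30 and 6.14, by -0.21 ± 0.27. The count of 1215 was 586 without QKO villi 3, 531 without TKO villi 2 and 794 without TKO villi 1.

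**Figure D4:**
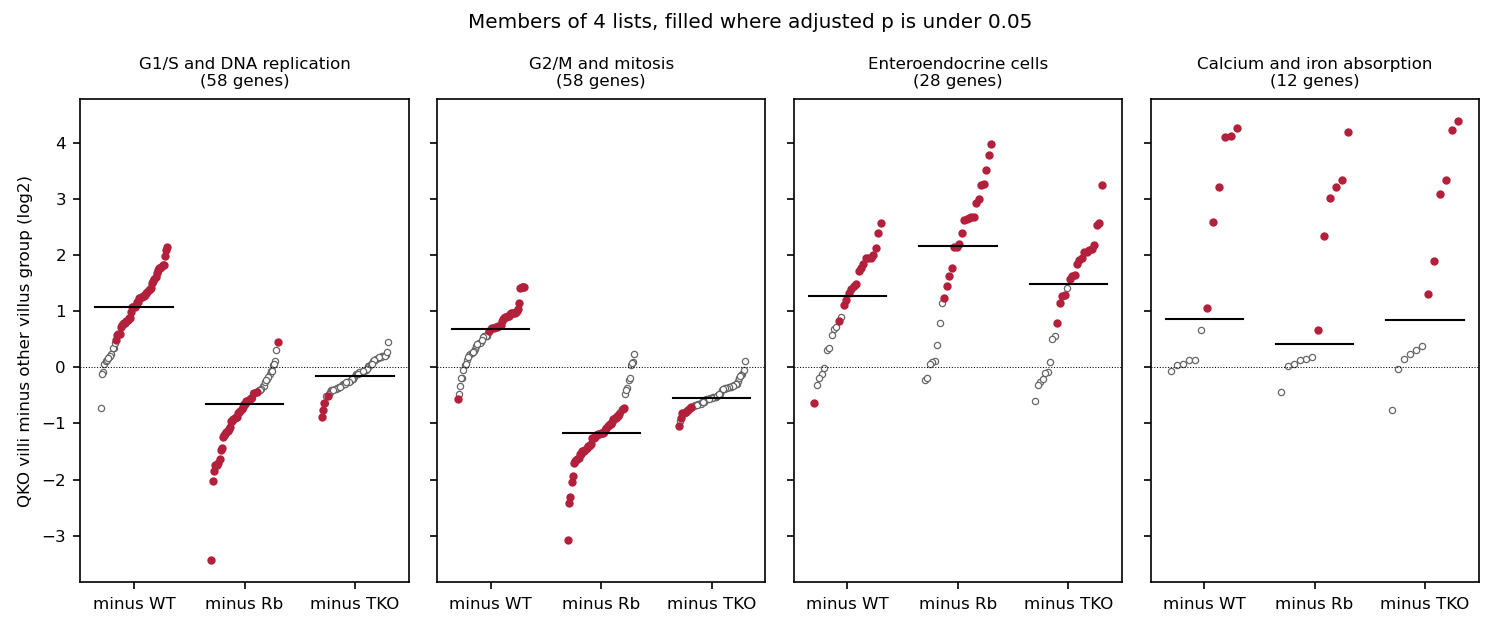
Difference (log2) of each measured member of 4 gene lists for QKO villi minus WT, minus Rb and minus TKO villi, filled where the adjusted p is under 0.05, with the median as a bar. The S phase median is 1.08 against WT and -0.65 against Rb, whereas the enteroendocrine medians are 1.27, 2.17 and 1.49 and 6 calcium and iron genes rose in each comparison.

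Genes of calcium and iron uptake, a task of the upper small intestine, held the largest rises with a shared function. Of 12 measured, 6 rose and 0 fell, beside 11.6% and 5.21% of all genes, with a median of 0.86. Trpv6, the calcium channel of the brush border, read 4.81, 4.79 and 4.90 in WT villi and 8.15, 8.30 and 10.83 in QKO villi. Every QKO array was above every WT array, QKO villi 3 by the most, and the difference was 4.26 ± 0.40, a fold of 19.2 (adjusted p = 7.41e-07). S100g, calbindin-D9k, which carries calcium across the cell, read 8.18, 8.70 and 8.39 against 11.996, 12.20 and 13.37 (4.10 ± 0.55, adjusted p = 4.17e-05). Atp2b1, the pump that exports calcium to the blood side, rose by 1.06 ± 0.23. In the iron pathway Cybrd1, the reductase that prepares iron for uptake, rose by 3.21 ± 0.23, with arrays at 5.21, 5.59 and 5.13 in WT and at 8.84, 8.20 and 8.52 in QKO. Slc11a2, the importer DMT1, rose by 2.59 ± 0.41, and Slc40a1, the exporter ferroportin, read 8.35, 7.47 and 8.64 in WT and 11.995, 12.16 and 12.68 in QKO (4.12 ± 0.40, adjusted p = 1.02e-06). Vdr, the vitamin D receptor, did not pass the test (0.05 ± 0.17, adjusted p = 0.896). With sex as a covariate 5 of the 12 were called higher.

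The same 6 uptake genes were also called higher against Rb villi and against TKO villi, comparisons that share the QKO arrays. Over all genes 14.2% were higher against Rb and 5.51% against TKO villi. Trpv6 read 4.89, 4.91 and 4.90 in Rb villi and 4.98, 4.86 and 4.75 in TKO villi, so QKO minus Rb was 4.197 ± 0.40 and QKO minus TKO 4.23 ± 0.40. Cybrd1 differed by 3.33 ± 0.23 from Rb and by 3.10 ± 0.23 from TKO villi. For Slc40a1 the differences were 3.21 ± 0.40 and 3.35 ± 0.40. Pdx1, a transcription factor of the duodenum, was chosen after its values were seen: it read 5.58, 6.06 and 6.42 in WT and 8.33, 7.99 and 9.10 in QKO villi (2.45 ± 0.33, adjusted p = 3.94e-05). Genes of the ileum, also chosen after their values were seen, gave an uneven picture. Fgf15, a hormone the ileum releases in response to bile acids, read 6.10, 5.66 and 5.94 in WT and 4.49, 4.54 and 4.59 in QKO (-1.36 ± 0.33, adjusted p = 0.00701), and with sex as a covariate the difference was -0.85 (adjusted p = 0.228). Fabp6, the ileal bile acid binding protein, stood at 7.98, 4.76 and 6.51 in WT and at 4.90, 4.71 and 4.37 in QKO, with overlap (-1.76 ± 0.84, adjusted p = 0.166). Whether the QKO and WT villi came from the same stretch of intestine is not in the labels, and the part of position in the rises above was not tested.

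Enteroendocrine genes, those of the sparse hormone cells of the epithelium, were higher in QKO villi. Of 28 measured, 17 rose and 1 fell, beside 11.6% and 5.21% of all genes, with a median difference of 1.27. Tph1, which makes serotonin in enterochromaffin cells, read 6.95, 7.73 and 8.15 in WT and 10.34, 9.74 and 10.49 in QKO. The QKO arrays stood clear of the WT arrays, and the difference was 2.58 ± 0.31 (adjusted p = 1.48e-05). Cck, the hormone cholecystokinin, read 8.86, 9.24 and 9.75 against 11.34, 10.83 and 11.52 (1.94 ± 0.33, adjusted p = 0.000443). Gip rose by 1.49 ± 0.34 and Pyy, a peptide more typical of the lower gut, by 1.78 ± 0.35. Granule proteins moved too, with Cpe, a prohormone processing enzyme, up by 2.39 ± 0.29 and Chga, chromogranin A, by 1.44 ± 0.36, which was 1.05 without QKO villi 1 (adjusted p = 0.06). Of the transcription factors, Neurod1 rose by 1.84 ± 0.29 and Insm1 by 2.13 ± 0.35, while Neurog3, which starts the lineage in the crypt, read 5.10, 5.12 and 5.12 in WT and 6.03, 5.89 and 5.59 in QKO without passing the test (0.73 ± 0.38, adjusted p = 0.209). The member that fell was Ddc (-0.64 ± 0.20, adjusted p = 0.0307), whose adjusted p was 0.0597 to 0.111 without QKO villi 1, QKO villi 3 or any 1 of the WT villus arrays. In these bulk samples more cells of a type and more RNA per cell cannot be told apart. The counts were 20 higher and 0 lower against Rb villi, beside 14.2% and 8.02% of all genes. Against TKO villi they were 18 and 0, beside 5.51% and 1.17%. Both comparisons share the QKO arrays with the one against WT. With sex as a covariate the counts against WT were 18 and 0.

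**Figure D5:**
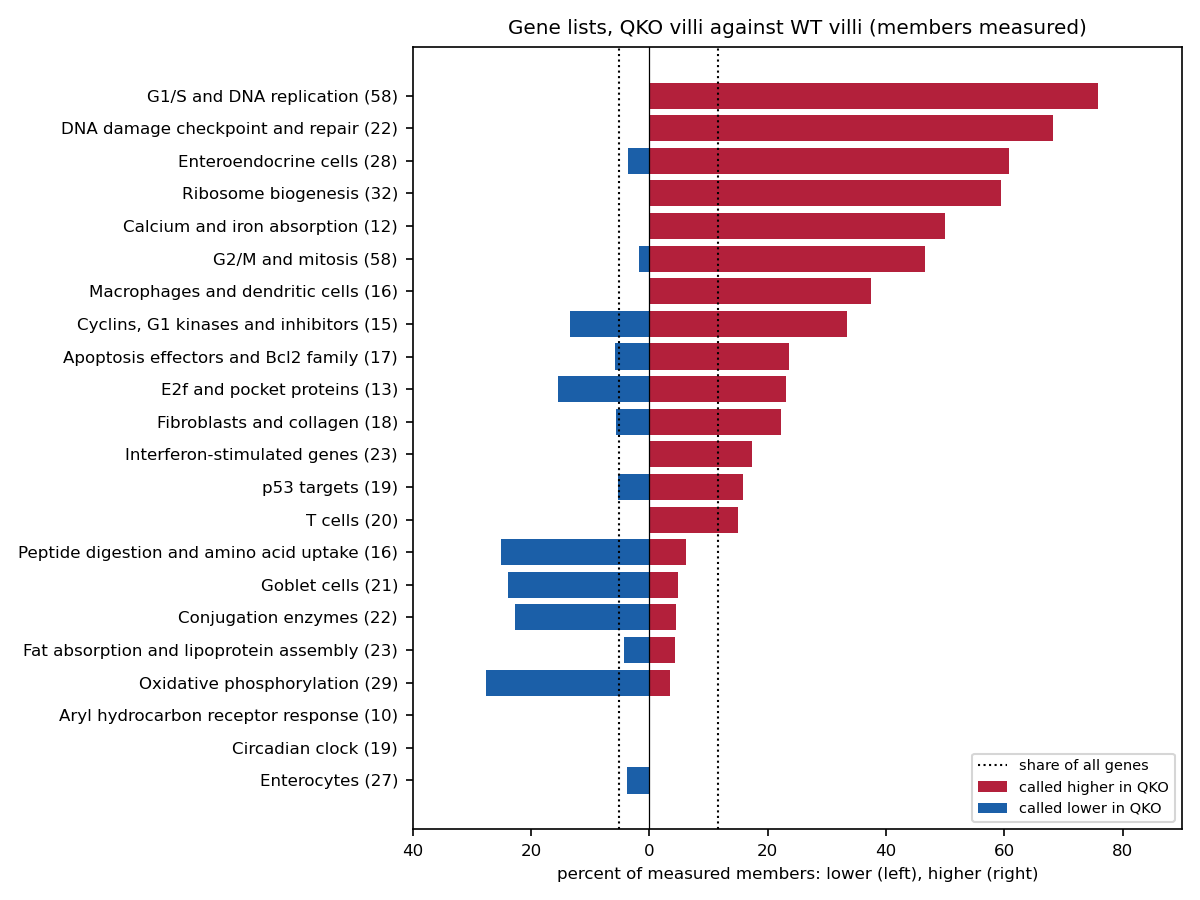
Share of the measured members of 22 gene lists called higher (red, right) or lower (blue, left) in QKO than in WT villi, with the number measured in brackets and the shares of all genes, 11.6% and 5.21%, as dotted lines. S phase, repair, enteroendocrine, ribosome biogenesis and calcium and iron lists reach furthest to the right, and the clock and aryl hydrocarbon receptor lists have 0 members called.

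Besides the calcium and iron genes, several of the single largest rises and falls lay outside the lists described above. Anxa10, an annexin typical of stomach lining, read 3.40, 3.74 and 3.42 in WT and 9.13, 9.33 and 9.99 in QKO villi, a difference of 5.96 ± 0.31 and a fold of 62.4 (adjusted p = 1.92e-10). Rb villi stood at 5.08, 4.01 and 4.64 and TKO villi at 4.90, 3.88 and 4.05, all below every QKO array. Gpr151, an orphan receptor, rose by 4.46 ± 0.53, Rbp7, a retinol carrier, by 3.70 ± 0.31, Klra5, a receptor of the Ly49 family, by 3.36 ± 0.41, and Akp3, an intestinal alkaline phosphatase, by 3.33 ± 0.63. Rbp7 did not pass the test against TKO villi, which read 8.12, 8.28 and 8.24 against 7.85, 9.10 and 7.77 in QKO (0.03 ± 0.31, adjusted p = 0.97). Gt(ROSA)26Sor, the transcript of the locus often used to insert transgenes, read 2.84, 2.91 and 3.32 in WT and 8.08, 7.79 and 7.12 in QKO (4.64 ± 0.93, adjusted p = 0.00172). It stood at 4.36, 4.84 and 8.50 in Rb and at 8.28, 8.18 and 8.61 in TKO villi, so it differed between arrays of 1 genotype. The other large rises were the Y-linked genes Eif2s3y (6.50 ± 1.53), Kdm5d (4.48 ± 1.20) and Uty (3.93 ± 1.10). With sex as a covariate Gt(ROSA)26Sor and Akp3 no longer passed the test, at 3.85 and 2.40 with adjusted p of 0.0636 and 0.0722.

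Pla2g2a, a secreted phospholipase of Paneth cells that attacks bacteria, fell the most. It read 12.20, 13.36 and 12.64 in WT and 7.20, 6.03 and 5.89 in QKO villi (-6.36 ± 0.44, adjusted p = 2.02e-08). Rb villi read 12.64, 12.85 and 13.49, and TKO villi lay at 8.36, 8.85 and 6.48. Among the measured genes Pla2g2a is the 41st from E2f2 along chromosome 4. Of the 200 measured genes nearest to E2f2, 23.0% were called, 34 higher and 12 lower, beside 17.4% of all genes on chromosome 4 and 16.8% of all genes. The share was 15% around Rb1, 10.5% around E2f1 and 15.5% around E2f3. Neighbours were counted because mutant alleles can carry flanking DNA of another strain. The part of such DNA in the fall of Pla2g2a was not tested. St3gal4, a sialyltransferase, read 12.50, 5.78 and 12.57 in WT and 4.71, 5.22 and 5.65 in QKO, so that WT villi 2 stood next to the QKO arrays (-5.09 ± 1.43, adjusted p = 0.0181). Its adjusted p was 0.101 without WT villi 1, 0.109 without WT villi 3, 0.0509 without QKO villi 1 and 0.106 with sex as a covariate. Plb1, a brush border phospholipase, fell by 4.36 on the log2 scale (SE 0.81), from 10.15, 8.97 and 8.82 to 5.20, 4.53 and 5.12.

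Among the next falls, the carboxylesterases Ces1g and Ces2a, which hydrolyse drugs and lipid esters, fell by 3.36 and 2.81 on the log2 scale (SE 0.76 and 0.56). Cyp2c55, a cytochrome P450, read 12.33, 12.06 and 12.34 in WT and 9.89, 9.54 and 9.03 in QKO (-2.75 ± 0.37, adjusted p = 3.99e-05). TKO villi had it at 8.63, 8.78 and 8.69, below every QKO array. Slc6a20b, a transporter, differed by -2.76 ± 0.33, Elobl by -3.24 ± 0.38, Fam151a by -2.55 ± 0.44, Tppp, a tubulin binding protein, by -2.49 ± 0.31 and Reg3a, an antimicrobial lectin, by -2.54 ± 0.49. With sex as a covariate Plb1, Ces1g, Ces2a and Reg3a no longer passed the test, at -2.69, -2.20, -1.63 and -1.52, with adjusted p from 0.0873 for Plb1 to 0.176 for Ces1g.

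Enterocyte markers, enterocyte transcription factors and fat absorption genes showed few calls. Over all genes 11.6% were called higher and 5.21% lower, and peptide uptake and oxidative phosphorylation had more falls than that share. Of 27 enterocyte markers 0 rose and 1, Anpep, fell (-0.51 ± 0.17, adjusted p = 0.0465), with a median of -0.12 over the list. The Anpep call was lost without any 1 villus array other than QKO villi 3 (adjusted p from 0.0577 to 0.18). The fatty acid binding protein Fabp1 read 14.46, 14.46 and 14.36 in WT and 14.10, 14.20 and 14.19 in QKO (-0.27 ± 0.15, adjusted p = 0.249). The median centring of arrays raised the number of enterocyte markers called lower to 8. Of 16 enterocyte transcription factors 0 rose and 1, Cdx2, the intestinal master regulator, fell (-0.43 ± 0.11, adjusted p = 0.00903). Fat absorption had 1 rise and 1 fall among 23. Scarb1, a cholesterol receptor, read 6.94, 6.84 and 7.11 in WT and 8.79, 10.05 and 10.14 in QKO (2.70 ± 0.44, adjusted p = 0.00025), and Npc1l1, the cholesterol importer, differed by -0.83 ± 0.21, or by -0.52 without QKO villi 1 (adjusted p = 0.0548). In peptide and amino acid uptake 1 of 16 rose and 4 fell, led by the transporter Slc7a8 at -2.16 ± 0.21 (adjusted p = 8.41e-07). The falls numbered 2 without QKO villi 1, QKO villi 2 or any 1 of the WT villus arrays, 1 with sex as a covariate and 9 with centred arrays, and 0 rose without any 1 array other than QKO villi 1. Sugar handling had 2 rises among 10, with Slc2a1, the general glucose carrier, up by 1.73 ± 0.19, and 1 rise without any 1 of the 6 arrays. Oxidative phosphorylation had 1 rise and 8 falls among 29, all under 1 unit, such as Ndufb3 at -0.55 ± 0.10. Its median was -0.11, with 9 of 29 differences above 0. Lower in QKO without overlap were 11 of the 29, against 2178 of all 18193 genes. The falls numbered 3 without QKO villi 2, WT villi 1 or WT villi 3. The balance was 0 and 16 with centred arrays, 3 and 4 after quantile normalization and 1 and 1 when only the QKO and WT villus arrays were fitted.

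Calls in drug metabolism differed between lists. The shares across the 18193 genes were 11.6% for rises and 5.21% for falls, and the conjugation enzymes had more falls than that share. The aryl hydrocarbon receptor response had 0 of 10 called by limma. Cyp1a1, its classical target, differed by -1.43 ± 0.96 (adjusted p = 0.343). Of 22 conjugation enzymes 1 rose and 5 fell, among them the glutathione transferases Gstm1 (-1.85 ± 0.52) and Gstk1 (-1.77 ± 0.30). Gstm1 was no longer called without QKO villi 2, QKO villi 3, WT villi 1 or WT villi 3 (adjusted p from 0.0513 to 0.0985), and the number of falls was 3 without WT villi 1, 3 without WT villi 2, 2 without WT villi 3 and 2 with sex as a covariate. Cytochrome P450 families 2 to 4 had 0 rises and 1 fall among 17, Cyp2c55, and a median of -0.36. There 3 of 17 differences were above 0, and 10 genes lay lower in QKO without overlap, against 2178 of all 18193 genes. Of 21 retinoid genes 2 rose, Rbp7 and Rbp4 (2.39 ± 0.32), and 1 fell.

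Of 21 goblet genes 1 rose and 5 fell, with a median of -0.21. Among all genes 11.6% rose and 5.21% fell. Tff3, a trefoil peptide that protects the mucus, read 14.17, 14.01 and 14.28 in WT and 14.01, 13.34 and 13.68 in QKO (-0.48 ± 0.15, adjusted p = 0.0298), a call lost without QKO villi 2, QKO villi 3, WT villi 1 or WT villi 3 (adjusted p from 0.0577 to 0.17). Muc2, the main mucin, differed by -0.49 ± 0.19 (adjusted p = 0.0796). Only 1 goblet gene was called lower without QKO villi 2, without QKO villi 3, without WT villi 2, without WT villi 3 or with sex as a covariate, 2 without WT villi 1 and 8 without QKO villi 1. Of 9 Paneth genes 0 rose and 2 fell, Pla2g2a and Reg3a, while Lyz1, the lysozyme that defines these cells, read 14.08, 14.25 and 13.97 in WT and 14.33, 13.66 and 13.67 in QKO. Among 21 stem cell genes 6 rose and 0 fell. Lgr5 differed by -0.27 ± 0.36 without passing the test (adjusted p = 0.663), and Tert, the telomerase gene, rose by 2.10 ± 0.30. The list's median difference was 0.36, with 15 of 21 differences above 0, and its mean level was 7.24 to 7.42 on the WT and 7.56 to 7.91 on the QKO villus arrays. Its rises numbered 2 without QKO villi 1, 3 without QKO villi 2, 3 without WT villi 1, 3 without WT villi 2, 2 without WT villi 3, 2 with centred arrays and 1 with sex as a covariate. The part of crypt cells in these differences was not tested. Tuft cell genes had 0 rises and 1 fall among 16.

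Genes of immune and stromal cells, which a villus preparation can carry with it, rose in part. Over all genes 11.6% were called higher and 5.21% lower, with a median difference of 0.03. By called genes the T cell and interferon counts lay nearer to that share than the macrophage count. The order differed for genes higher in QKO without overlap, 18.8% of all genes. These were 14 of 20 T cell, 5 of 16 macrophage and dendritic and 2 of 23 interferon-stimulated genes. Of 16 macrophage and dendritic genes 6 rose and 0 fell, with a median of 0.68 and a mean level over the list between 5.93 and 6.04 on the WT arrays and between 5.94 and 7.37 on the QKO arrays. Their number was 0 without QKO villi 3, 3 without WT villi 1, 1 without WT villi 2, 2 without WT villi 3 and 0 with sex as a covariate. Among 20 T cell genes 3 rose, Cd3e by 1.18 ± 0.29, with a median of 0.78, and 1 was called without QKO villi 3 or without any 1 of the WT arrays, 0 with sex as a covariate and 10 when only the QKO and WT villus arrays were fitted. The part of these cells in the other differences was not tested. Of 18 fibroblast and collagen genes 4 rose and 1 fell. Vim, a filament protein of mesenchymal cells, read 6.69, 7.26 and 6.56 in WT and 8.86, 9.52 and 9.76 in QKO (2.54 ± 0.32, adjusted p = 1.72e-05). Fn1, fibronectin, read 6.93, 6.27 and 6.12 in WT and 6.56, 8.73 and 11.005 in QKO, so the QKO arrays spanned over 4 units and QKO villi 1 lay within the WT range (2.33 ± 0.69, adjusted p = 0.0239). Its value without QKO villi 3 was 1.21 (adjusted p = 0.147), and it was no longer called without QKO villi 2, WT villi 2 or WT villi 3 (0.0512 to 0.0832). The fibroblast rises numbered 10 without QKO villi 1, 1 without QKO villi 2, without QKO villi 3 or without WT villi 3, and 2 without WT villi 2. Of 23 interferon-stimulated genes 4 rose, led by Ifit2 at 2.17 ± 0.40, whose QKO arrays read 5.54, 6.71 and 8.05. Their number was 7 without QKO villi 1 and 2 without QKO villi 3, WT villi 1 or WT villi 2. Endothelial genes had 0 of 13 called, MHC class II genes 0 of 6 and pancreatic acinar genes 0 of 12.

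Finally, the QKO effect in villi was set against the QKO effect in crypts, which asks which changes differ between dividing and differentiated cells. The difference of both effects was called for 990 genes (5.44%), 2.87% with a higher value in villi and 2.57% with a higher value in crypts. QKO villus and crypt arrays of the same number deviated together from their group means (r = 0.55, 0.25 and 0.37), and WT arrays of the same number less so (0.01, 0.13 and 0.0019). With the number as a random block joining crypts and villi in QKO and TKO, 1374 genes were called. In the fit without a block the QKO effect was higher in villi for 22 of 58 S phase genes and 18 of 58 mitotic genes. It was lower in villi for 0 of either list. Mcm4 read 10.41, 10.13 and 10.68 in WT crypts and 11.06, 11.08 and 10.99 in QKO crypts, so that its effect in villi exceeded that in crypts by 1.51 ± 0.24 (adjusted p = 0.00137). Mki67 read 10.94, 11.22 and 11.75 in WT crypts against 8.77, 9.79 and 10.002 in QKO crypts, and for it the villus effect was higher by 1.60 ± 0.41. Anxa10 stood at 3.81, 4.34 and 3.80 in WT and 6.91, 5.83 and 5.81 in QKO crypts, a smaller rise than in villi by 3.77 ± 0.44 (adjusted p = 0.000188). S100g and Slc40a1 rose in crypts as well, and their effects differed by 0.50 ± 0.78 and 0.01 ± 0.57, with adjusted p of 0.769 and 0.993. Rb1 on WT crypts 3 read 8.46, against 10.31 and 10.59 on the others labelled WT crypts, and without the 2 crypt arrays that go against their label in this way the count was 815. It was 635 without WT crypts 2, 640 without WT villi 1 and 533 without WT villi 3.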

How the data were processed

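Expression was measured on 24 Affymetrix arrays, 3 for each of 8 groups, from 3 ug of total RNA per array per the labels' protocols. The authors deposited log2 expression values per probe set, between 2.29 and 14.9. The sources used here do not give how they were summarised, background corrected and normalized, and the number of arrays limits the precision. Of 45101 probe sets, 64 are controls, 34945 name 1 gene, 932 name several and 9160 are unnamed here. Probe sets naming 1 gene were reduced to the one with the highest mean per gene, which gave 18193 genes. Gene symbols came from GEO's platform annotation, and 34741 were updated through RefSeq gene identifiers.

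Group means were fitted with limma 3.58.1 in R 4.3.3, with an intensity trend and Benjamini-Hochberg adjustment over all 18193 genes, and the fit was tested on simulated data. Groups came from the sample titles. Arrays of 1 group correlated at 0.978 to 0.995, with 0 identical pairs. Alternatives were scaling, probe set choice, a filter on dim genes, array weights, a sex covariate, a replicate block and leaving out each array. The members and gene lists were chosen with earlier results of these data known. Genes named in the text are the 12 largest called rises and falls in the comparison with WT villi, the 4 largest in the others, and per list the 3 smallest p-values in each direction and the 3 highest levels, besides Rb, E2f and marker genes. Mcm5, Mcm6, Rrm2, Uhrf1, Dnmt1, Cdc25a, Brca1, Mki67, Top2a, Slc11a2 and Atp2b1 fall outside that rule and were chosen after their values were seen. The same holds for Vdr, Cck, Gip, Pyy, Neurod1, Neurog3, Insm1, Pdx1, Fgf15 and Fabp6.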

Additional observations from a re-analysis of the deposited data

Results flagged for a closer look

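The QKO effect differed between villi and crypts by the fitted interaction for 990 genes. The largest positive values were in Clca4a, a chloride channel regulator, at 5.77, the adenosine deaminase Ada at 4.83, Nt5e, which makes adenosine outside the cell, at 4.54, and Ly6m at 4.12. In these genes QKO crypts stood low: Ada read 6.98, 7.61 and 7.44 there against 12.16, 11.39 and 12.57 in WT crypts. The largest negative values were in genes of pancreatic acinar enzymes, with Cela2a at -3.90, Cpb1 at -3.36, Rnase1 at -3.25 and Ctrb1 at -2.94. QKO crypts read 9.51, 4.49 and 9.33 for Cela2a, so that QKO crypts 2 lay near the WT crypts at 3.69, 3.58 and 3.87.

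The bacterial poly-A controls, which no comparison of genes uses, were higher on QKO than on WT villus arrays by 4.67 on the log2 scale. Their part in the differences was not tested.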

How the results depend on the processing

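The count for QKO against WT villi, 3052, was 5360 with arrays centred on their medians, 4955 over every probe set, 1673 with only the groups compared and 1242 with sex as a covariate, and 1956 to 2809 when 1 array was left out. Against Rb villi it was 7168 over every probe set and 2622 with only the groups compared, and 2868 to 4069 with 1 array left out. Against TKO villi these were 1895 and 145, and 531 to 1607. For the villus effect minus the crypt effect the count was 1525 with centred arrays, 1885 over every probe set and 533 to 1102 with 1 array left out. The cause was not tested. With sex as a covariate Kdm5d turned to -0.19, Uty to -0.39 and Xist to 0.86. List medians turned for E2f and pocket proteins (-0.0465 centred, -0.0871 quantile), p53 targets (-0.0661 and -0.0198), Wnt targets (-0.11 and -0.0449) and tuft cells (-0.0576 and -0.0137, and -0.0524 without dim genes). The red blood cell median was 0.0049 with array weights and -0.1971 to 0.0068 with 1 array left out. Of 158 called genes among the 312 named, 76 were called in each of 18 other settings.

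Same-numbered QKO and WT villus arrays did not deviate together (r from -0.04 to 0.02), so the numbers do not pair these groups. For QKO and TKO villi r was 0.38, 0.03 and 0.27 at the same number and -0.37 to 0.11 at other numbers. The reported fit of QKO against TKO villi does not model this. With the replicate number as a fixed block the counts were 1276, 2190, 471 and 587 in the order above, and with a random block 3090, 4099, 1217 and 1374.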

Other observations

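Of 16 claudins and tight junction genes 3 rose and 2 fell, and without WT villi 3, 1 rose and 1 fell. Among all genes 11.6% rose and 5.21% fell. Cldn2, a claudin that forms cation pores, read 9.04, 8.65 and 8.34 in WT villi and 10.81, 10.83 and 10.63 in QKO villi, with no overlap (2.08 ± 0.24, adjusted p = 1.03e-05 by limma). Cldn3, a sealing claudin, differed by -0.47. Of 18 cholesterol synthesis genes 3 rose and 1 fell, with Insig1, a brake on that pathway, up by 1.36. The rises numbered 5 without QKO villi 1, 1 without QKO villi 3 or WT villi 2 and 0 with sex as a covariate, and 0 fell without QKO villi 1, QKO villi 2, WT villi 2 or WT villi 3. The circadian clock had 0 of 19 called by limma.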
